A study of Sus scrofa with 12 samples.

Results

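The ribosomal proteins of the cytosolic ribosome were examined in duodenal mucosa of pigs with high or low feed efficiency (FE, the share of feed that is turned into growth). They were taken as all probe sets whose array annotation carries a large subunit (RPL, RPLP) or small subunit (RPS) symbol, without the RPS6 kinases, and of several probe sets for a symbol the one with the highest average was used. This gave 62 symbols of 13755 in the series, 38 of the large and 24 of the small subunit, chosen from 199 probe sets. The series holds 12 Affymetrix Snowball arrays, each from 1 pig (Sus scrofa) aged 140 days. There were 6 pigs of high FE and 6 of low FE, and each group held 3 males and 3 females. The labels give no breed, diet or genotype, and no measured value of feed efficiency. All values are deposited log2 values, so a difference of 1 is a factor of 2 in signal.

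A ribosome is built from a small subunit, which reads the messenger RNA, and a large subunit, which joins amino acids and feeds the new protein through its exit tunnel. Most of the proteins in both subunits are present once per ribosome. Their messenger RNAs begin with a terminal oligopyrimidine (TOP) tract, through which the growth pathway around mTOR and the protein LARP1 sets how strongly they are translated. The lining of the duodenum is renewed continually from dividing crypt cells and makes large amounts of digestive and mucus proteins.

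The array holds 69 antigenomic probe sets that match no pig transcript, and their median per array, between 2.16 and 2.53, measures array background. Single background probe sets had means up to 7.62, and the 95th percentile of their means, 7.52, is called the background limit here. Array medians lay between 3.83 and 3.91. The first principal component held 24.9% of the variance, and the 3 arrays at its low end were those of high FE pigs 1, 5 and 2, with array background of 2.17, 2.16 and 2.29. No low FE array lay there, so values without these 3 arrays are given beside the main ones for the subunits and for part of the members and lists. Low FE pig 1 had an array background of 2.25, below that of high FE pig 2. Without the 3 arrays the high FE group holds pigs 3, 4 and 6, of which only pig 3 is male.

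Of the 62 members, 33 had a mean above the background limit, 18 of the large and 15 of the small subunit. The other 29 lay at or below it, among them RPL7A, RPL10, RPL14, RPL17, RPL26L1, RPL35, RPL39 and RPS27. The means of 3 members, RPL11, RPL29 and RPS4X, lay under the highest array background median. RPL11 and RPL29 fell below the 30th percentile of all means, a log2 value of 2.37, and were not tested, which left 60. RPL11, which with RPL5 binds the 5S ribosomal RNA and the p53 regulator MDM2, had 0.98 to 3.20 in high FE and 1.16 to 1.87 in low FE. RPL29 had 1.39 to 1.98 in high FE and 1.49 to 1.89 in low FE.

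Some symbols need care. RPS4 is an older name of RPS4X in the gene table of the Sscrofa11.1 assembly, so the 62 symbols stand for 61 genes, and RPS4 had a mean of 10.46 while the probe set named RPS4X had 2.42. RPL19 was annotated to 74 probe sets with means between 1.33 and 10.18, which is unlike a single gene. Of the probe sets used, 15 carry the suffix of the array design for probes that also match other sequences, and ribosomal proteins have many processed pseudogenes. Signal of such copies cannot be told apart from that of the gene.

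The first question was whether ribosomal protein signal differed between high and low FE. No member passed the threshold, an adjusted p of 0.05 in limma (a linear model per probe set with a shared variance estimate, here with terms for FE and sex, adjusted by Benjamini-Hochberg over the 33405 probe sets kept), and the lowest adjusted p of a member was 0.753. Over all probe sets tested, 0% passed. At an unadjusted p under 0.05, 0 of 60 members were higher in high FE, where the background was 2.65% of all probe sets, and 2 of 60 were lower, where it was 3.34%. Both counts are near the background. No member had all 6 high FE pigs below all 6 low FE pigs, an arrangement found in 0.171% of all probe sets, or all above, found in 0.0898%.

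Signs were uneven in both subunits without any member passing. The mean of high FE pigs was the lower one for 26 of 38 large subunit members, and the median of the differences was -0.07. In the small subunit this was 17 of 24, at a median of -0.15. Over all 47722 probe sets other than controls, 52.8% were lower in high FE and the median was -0.01. Of all 62 members, 32 were lower in high FE in both sexes and 8 were higher in both. The like shares over all probe sets were not counted. Members above the background limit varied together across pigs, so their signs are not independent.

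The size of these medians moved with array background and with the 3 arrays. Without the 3 arrays the counts were again 26 of 38 and 17 of 24, while the medians were -0.05 in the large and -0.06 in the small subunit. With array background as a term in the model they were -0.02 and -0.06, and 22 large subunit members were lower. Among members above the background limit, 12 of 18 large subunit members were lower, with a median of -0.06, and 12 of 15 small subunit members, with a median of -0.17. Without the 3 arrays these were 16 of 18, with a median of -0.08, and 12 of 15, with a median of -0.06. With the background term they were 13 of 18 at -0.03 and 11 of 15 at -0.06. What part array background has in the difference beyond these fits was not tested.

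**Figure D1:**
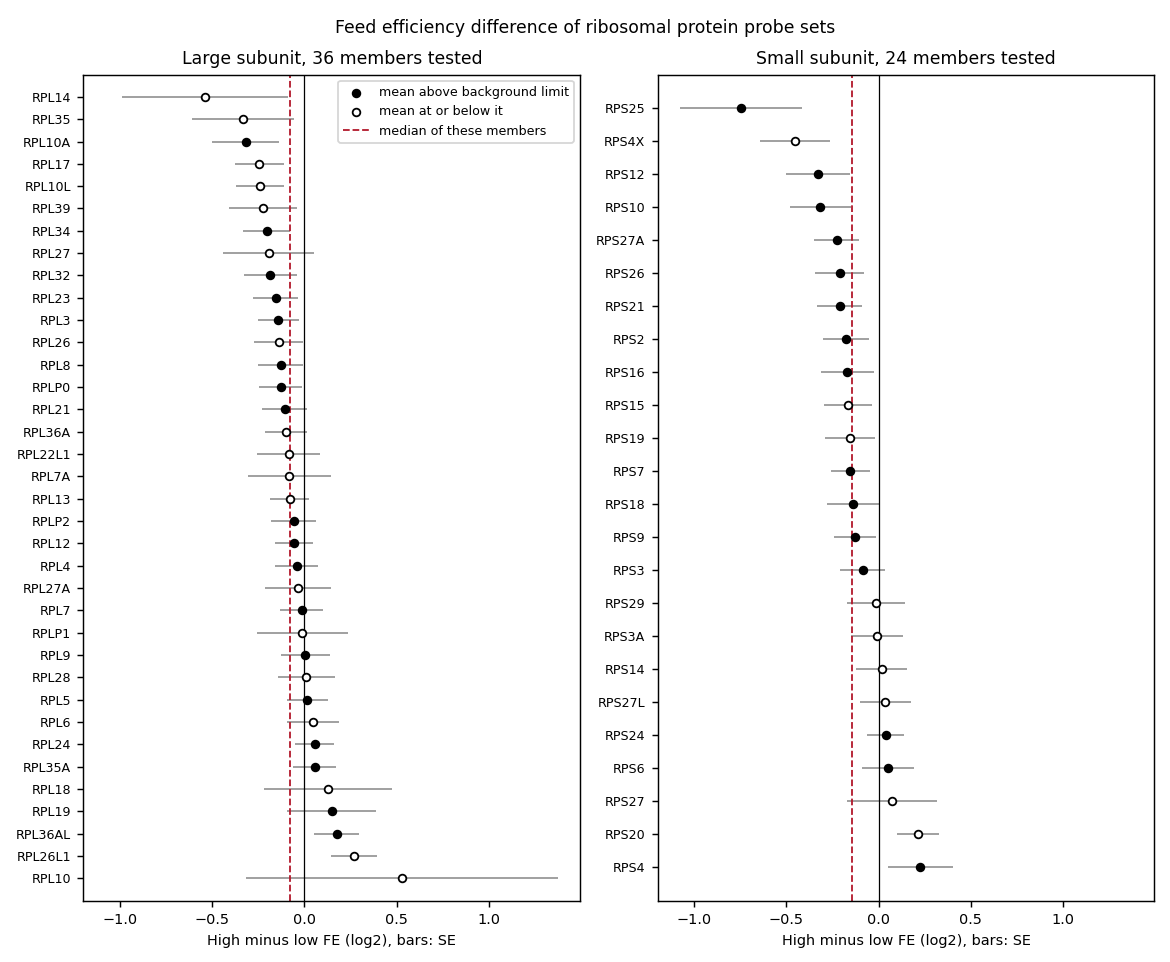
Difference between high and low FE (log2, horizontal axis) of the 36 large and 24 small subunit members tested, with SE bars, ordered by size. Filled points have a mean above the background limit of 7.52, and the dashed line marks the median of the members drawn. Most points lie left of 0, and RPL10 has the widest error bar of the members drawn.

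Pig by pig, the groups overlapped. The deviation of each member from its mean over 12 pigs was summarised as the median over a subunit. For the small subunit this median was -0.18, -0.08, -0.03, -0.13, -0.21 and 0.18 in high FE pigs 1 to 6. In low FE pigs 1 to 6 it was 0.02, 0.12, 0.20, -0.17, 0.08 and 0.14. Thus 5 of 6 high FE pigs lay below 0 and 5 of 6 low FE pigs above it, with high FE pig 6 and low FE pig 4 on the opposite side.

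The large subunit followed this pattern in part, with less range. Its medians were -0.02, -0.09, -0.08, -0.10, -0.07 and 0.16 in high FE pigs 1 to 6. They were -0.02, 0.14, 0.12, -0.13, 0.09 and 0.11 in low FE pigs 1 to 6, so low FE pigs 1 and 4 lay below 0. Large subunit members above the background limit had medians of 0.025, -0.035, -0.086, -0.205, 0.024 and 0.133 in high FE pigs 1 to 6. High FE pigs 1 and 5 thus lay above 0 there. In low FE pigs 1 to 6 the medians of these members were -0.078, 0.112, 0.109, -0.144, 0.069 and 0.0965. High FE pig 6 had the highest value of all 12 pigs in 18 of 62 members, against 8.58% of all probe sets kept. High FE pigs 5 and 4 had the lowest value in 13 and 12 members, against 11.4% and 9.66% of all probe sets kept.

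The subunits parted in high FE pigs 1 and 5. Their large subunit medians exceeded their small subunit medians by 0.16 and 0.14. In the remaining pigs this difference lay between -0.07 and 0.05. These are 2 of the 3 arrays at the low end of the first principal component, and they have the lowest array background.

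**Figure D2:**
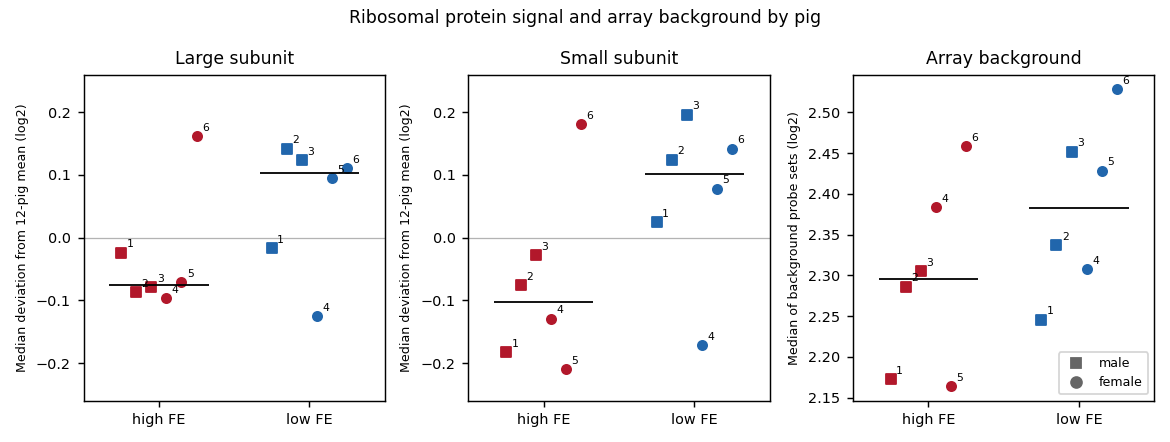
Median deviation of large (left) and small (middle) subunit members from their 12-pig means, and median of the background probe sets (right), all log2, for each pig. Squares are males, circles females, numbers name the pig and lines mark the group medians. High FE pig 6 and low FE pig 4 lie on the other group's side in both subunits, and high FE pigs 1 and 5 have the lowest background.

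In the small subunit, the difference of largest size belonged to RPS25, a protein of the small subunit head that several viral internal ribosome entry sites need. Its values in high FE pigs 1 to 6 were 6.19, 7.42, 7.75, 7.98, 7.43 and 8.50, and in low FE pigs 8.47, 8.46, 8.31, 7.41, 8.52 and 8.57. Only high FE pig 6 reached the level of the 5 higher low FE pigs, and low FE pig 4 lay below 5 pigs of the high FE group. The difference was -0.75 ± 0.33 (SE, adjusted p = 0.753). It was -0.21 without the 3 arrays and -0.41 with array background in the model. A second probe set of RPS25, with a mean of 6.97, differed by 0.03.

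RPS4X, RPS12, RPS10, RPS27A and RPS21 were the other small subunit members with the lowest unadjusted p among those lower in high FE. RPS12 ranged from 11.63 to 12.56 in high FE (median 12.19) and from 12.07 to 12.65 in low FE (median 12.54), a difference of -0.33 ± 0.17 (SE). RPS10, which is ubiquitinated when ribosomes collide, ranged from 10.75 to 11.65 in high FE (median 11.26) and from 11.29 to 11.64 in low FE (median 11.52), a difference of -0.32 ± 0.17 (SE). In both, high FE pigs 1 and 5 held the 2 lowest values, and the other 4 high FE pigs overlapped with low FE. Without the 3 arrays the differences were -0.06 for RPS12 and -0.01 for RPS10.

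RPS27A, which is made as a fusion with ubiquitin, averaged 9.18 ± 0.17 in high FE pigs and 9.41 ± 0.17 in low FE pigs (SD, n = 6 each). RPS21 averaged 10.10 ± 0.24 in high FE and 10.31 ± 0.15 in low FE (SD, n = 6 each). RPS4X, at the level of array background, differed by -0.45 ± 0.19 (SE), with 1.79 to 2.37 in high FE and 2.25 to 3.05 in low FE. The adjusted p was 0.753 for all 5 members after RPS25.

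The 7 small subunit members with a higher mean in high FE differed by no more than 0.23. RPS4 had 10.80, 10.59, 10.28, 10.17, 10.98 and 10.60 in high FE pigs 1 to 6 and 10.40, 10.38, 10.55, 9.78, 10.32 and 10.64 in low FE pigs 1 to 6. It differed by 0.23 ± 0.18 (SE, adjusted p = 0.768), and by 0.02 without the 3 arrays. High FE pigs 5 and 1 held the highest values of RPS4, which is the reverse of their place in RPS12 and RPS10.

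RPS20, another protein ubiquitinated at collided ribosomes, had 2.59 to 3.07 in high FE and 2.43 to 2.81 in low FE, close to array background. Its difference was 0.21 ± 0.11 (SE, adjusted p = 0.753). RPS6, the target of the S6 kinases downstream of mTOR, ranged from 11.37 to 12.18 in high FE (median 11.92) and from 11.56 to 11.96 in low FE (median 11.87). High FE pigs 1, 5 and 2 were the 3 highest for RPS6 and high FE pig 4 the lowest, and the difference of 0.05 ± 0.14 (SE) was -0.14 without the 3 arrays. RPS24, a gene mutated in Diamond-Blackfan anaemia in humans, had an SD of 0.10 over the 12 pigs, the smallest among the 62 members, and differed by 0.04.

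**Figure D3:**
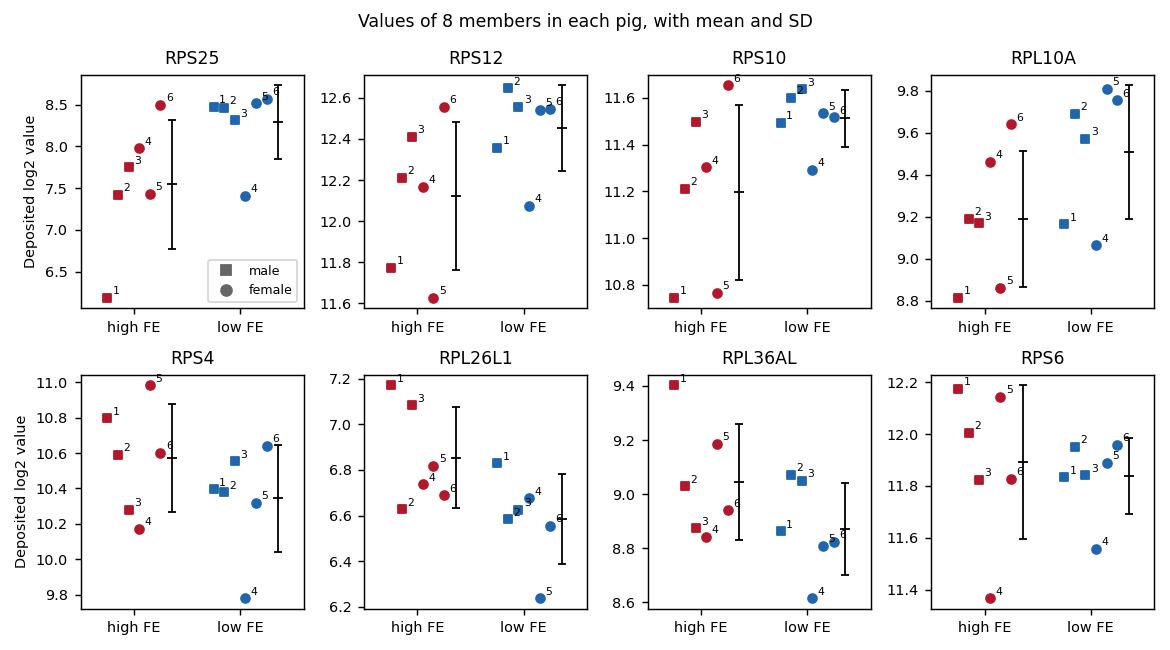
Deposited log2 values of 8 members in the 6 high FE pigs (left) and the 6 low FE pigs (right) of each panel, with group means and SD. Squares are males, circles females and numbers name the pig. High FE pigs 1 and 5 are the lowest 2 pigs in RPS12, RPS10 and RPL10A and the highest 2 in RPS4 and RPL36AL.

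In the large subunit, the differences of largest size below 0 were those of RPL14, at -0.54 ± 0.45 (SE, adjusted p = 0.774), and RPL35, at -0.33 ± 0.28 (SE, adjusted p = 0.774). Without the 3 arrays they were -0.02 and 0.12, and RPL35 is named here after its values were seen. The means of RPL14 (5.71) and RPL35 (7.08) lay below the background limit. By unadjusted p RPL10A came before both. RPL10A, a protein of the mobile stalk by which used transfer RNA leaves, had values of 8.81, 9.19, 9.17, 9.46, 8.86 and 9.64 in high FE pigs 1 to 6. In low FE pigs 1 to 6 they were 9.16, 9.69, 9.57, 9.06, 9.81 and 9.75. The difference was -0.32 ± 0.18 (SE, adjusted p = 0.753), and -0.11 without the 3 arrays. High FE pigs 1 and 5 were again the lowest 2, and the remaining pigs of both groups overlapped.

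The exit tunnel is lined by RPL17 and RPL39 among others. RPL17 averaged 4.24 ± 0.11 in high FE and 4.48 ± 0.26 in low FE (SD, n = 6 each), a difference of -0.24 ± 0.13 (SE, adjusted p = 0.753). RPL39 averaged 5.27 ± 0.43 in high FE and 5.50 ± 0.13 in low FE (SD, n = 6 each), and high FE pigs 1, 2 and 5 were its lowest 3. Its difference of -0.23 was 0.17 without those 3 pigs, and -0.06 with array background in the model. Leaving out its lowest 3 values raises the high FE mean in any case.

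RPL34, RPL32, RPL23 and RPL3 had means above the background limit and differences between -0.20 and -0.14, with adjusted p between 0.753 and 0.768. In that order, their differences without the 3 arrays were -0.13, -0.0015, -0.06 and -0.13. RPL3 lies near the peptidyl transferase centre, where amino acids are joined. It ranged from 9.47 to 9.81 in high FE (median 9.60), and from 9.42 to 9.84 in low FE (median 9.81). In low FE 5 pigs lay between 9.80 and 9.84 and low FE pig 4 apart at 9.42, a value below all 6 high FE pigs. RPL23, which like RPL5 and RPL11 can bind MDM2, ranged from 11.53 to 12.08 in high FE (median 11.73) and from 11.66 to 12.03 in low FE (median 11.96).

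Among large subunit members higher in high FE, RPL19 and RPL6 changed sign without high FE pig 1. RPL19 had 11.24 in that pig, against 9.78 to 10.69 in the other high FE pigs and 9.89 to 10.34 in low FE. Its difference of 0.15 ± 0.24 (SE, adjusted p = 0.881) was -0.08 without that pig. RPL6 differed by 0.05 with all pigs and by -0.04 without high FE pig 1. A second probe set of RPL6 differed by 0.49 with all pigs (limma, unadjusted p = 0.00458). It is named here after its value was seen. The means of the used and the second probe set of RPL6, 6.86 and 4.85, lay below the background limit. RPL24 differed by 0.06, and so did RPL35A, another gene mutated in Diamond-Blackfan anaemia in humans.

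RPL18 and RPL10 rested on single pigs too. RPL18 differed by 0.13 ± 0.35 (SE), and by -0.21 without low FE pig 4, whose value was 4.05. RPL10, which joins the large subunit late in its assembly, had 1.07 to 5.75 in high FE and 1.15 to 4.31 in low FE. Its SD over 12 pigs, 1.58, was the largest among the 62 members, and its difference was 0.53 ± 0.84 (SE, adjusted p = 0.879). Without high FE pig 4 it was -0.03.

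The stalk proteins recruit the translation GTPases to the large subunit. RPLP0, the base of the stalk, ranged from 10.99 to 11.56 in high FE (median 11.51) and from 11.41 to 11.69 in low FE (median 11.52). RPLP1 averaged 4.95 ± 0.41 in high FE and 4.96 ± 0.50 in low FE, and RPLP2 averaged 8.30 ± 0.18 in high FE and 8.36 ± 0.17 in low FE (SD, n = 6 each). RPLP0 differed by -0.13 ± 0.12 (SE), RPLP1 by -0.01 ± 0.25 (SE) and RPLP2 by -0.06 ± 0.12 (SE).

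Several ribosomal proteins have a second gene copy that codes for a close relative. RPL26L1, the relative of RPL26, ranged from 6.63 to 7.17 in high FE (median 6.78), and from 6.24 to 6.83 in low FE (median 6.60). It differed by 0.27 ± 0.12 (SE, adjusted p = 0.753), by 0.28 in males, 0.26 in females and 0.29 without the 3 arrays. RPL26 itself differed by -0.14 ± 0.13 (SE). A second probe set annotated to RPL26L1, with a mean of 5.11, differed by -0.20, against the sign of the brighter one. The brighter one carries the suffix for probes that also match other sequences, and the second does not. Whether RPL26 is among those sequences was not examined.

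RPL36AL, the relative of the X-linked RPL36A, ranged from 8.84 to 9.40 in high FE (median 8.98), and from 8.62 to 9.07 in low FE (median 8.84). It differed by 0.17 ± 0.12 (SE, adjusted p = 0.76), and by 0.04 without the 3 arrays, while RPL36A differed by -0.10 ± 0.11 (SE). RPL10L, which stands in for RPL10 in the testis of mice, differed by -0.24 ± 0.13 (SE, adjusted p = 0.753). Its values were 6.16 to 6.76 in high FE and 6.47 to 6.84 in low FE. RPL22L1, the relative of RPL22, differed by -0.09 ± 0.17 (SE). RPS27L, a p53 target in human cells, differed by 0.04 ± 0.14 (SE), and RPS27 by 0.07 ± 0.25 (SE).

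Members above the background limit varied together across pigs. Over the 12 arrays, the median correlation between pairs was 0.628 for the 15 small subunit members (105 pairs) and 0.404 for the 18 large subunit members (153 pairs). Between the subunits it was 0.399 (270 pairs), and between all probe sets above the same limit 0.054. These are descriptions over the same 12 arrays, with array background in common, and the part of background in them was not tested. The median SD over pigs of members above the limit was 0.19, against 0.28 for all probe sets above it.

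**Figure D4:**
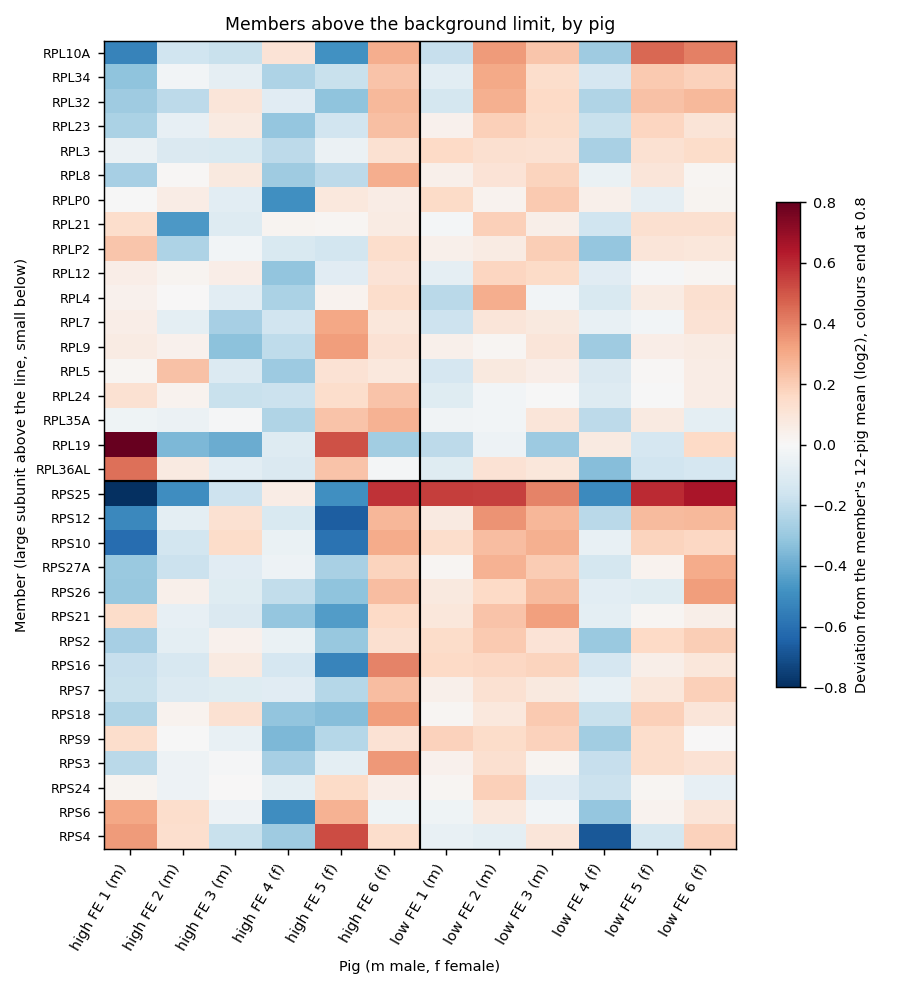
Deviation from the member's 12-pig mean (log2, colour) for the 33 members above the background limit, in rows ordered within each subunit by the FE difference, and the 12 pigs in columns, high FE left of low FE. High FE pigs 1 and 5 are low for most small subunit members and high for RPS4, RPS6, RPL19 and RPL36AL. High FE pig 6 is above the mean in all rows but RPL19, RPL36AL and RPS6, and low FE pig 4 is below it in all but RPL19 and RPLP0.

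High FE pigs 1 and 5 were not low for every member. High FE pig 5 had the lowest of the 12 values for 8 small subunit members, among them RPS2, RPS7, RPS12, RPS16, RPS18, RPS21 and RPS26, and for 5 large subunit members. The same pig had the highest value for RPS4, RPS14, RPL7 and RPL9. High FE pig 1 was lowest for 9 members, among them RPS25, RPS10, RPS19, RPS27A and RPL10A, and highest for 7, among them RPS6, RPL6, RPL19, RPL36AL and RPLP2. These members were picked after their values were seen.

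Probe sets of the same symbol often differed. Of 31 members with 2 or more tested probe sets, the 2 brightest had opposite signs of the FE difference in 12. After RPL19, the spread was widest in RPL36AL, whose probe sets with means of 8.96, 5.89 and 2.57 differed by 0.17, -1.02 and -0.50, and in RPS25. For RPS12 the 2 probe sets gave -0.33 and -0.32, and for RPL39 -0.23 and -0.22.

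The second question was whether signal differed between the sexes. Pig identifiers form 2 runs of numbers, and the labels do not say what the runs stand for. The later run holds only females, high FE pigs 5 and 6 and low FE pigs 5 and 6. All males are in the earlier run, with high FE pig 4 and low FE pig 4 as its only females. Sex and run therefore largely coincide, and their parts in a sex difference can hardly be told apart. No member passed, with a lowest adjusted p of 0.975 (limma), while 7 of 33405 probe sets (0.021%) did. In males 18 of 38 large subunit members were higher than in females, with a median difference of -0.02, and 16 of 24 small subunit members, with a median of 0.05. Over all probe sets other than controls 49.3% were higher in males and the median was -0.0027. At an unadjusted p under 0.05, 0 of 60 members were higher in males (background 2.31%) and 2 were lower (background 2.23%).

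Those 2 were RPL7A and RPS3A. RPL7A ranged from 3.77 to 5.02 in males (median 4.67) and from 4.71 to 5.57 in females (median 5.15), a difference of -0.65 ± 0.22 (SE, adjusted p = 0.975). RPS3A ranged from 2.11 to 2.91 in males (median 2.52) and from 2.70 to 3.07 in females (median 2.82), close to array background. Males and females overlapped in both genes. RPL27A differed by -0.33 ± 0.18 (SE) and RPL22L1 by -0.21 ± 0.17 (SE) between males and females.

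On the other side, RPL28 differed by 0.23, RPS21 by 0.20, RPS9 by 0.20, RPL26L1 by 0.20 and RPL36AL by 0.18 between males and females. RPS9 ranged from 11.63 to 11.87 in males (median 11.83) and from 11.32 to 11.82 in females (median 11.57), a difference of 0.20 ± 0.12 (SE, adjusted p = 0.975). Its lowest 2 values were those of high FE pig 4 and low FE pig 4, both females.

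The gene table places 5 of the 62 symbols on the X chromosome. RPL36A averaged 4.07 ± 0.17 in males and 3.89 ± 0.14 in females (SD, n = 6 each). RPS4 averaged 10.50 ± 0.19 in males and 10.42 ± 0.42 in females, and RPL39 averaged 5.36 ± 0.37 in males and 5.41 ± 0.31 in females (SD, n = 6 each). RPS4X and RPL10 differed by 0.05 ± 0.19 (SE) and 0.48 ± 0.84 (SE). All 5 had an adjusted p between 0.975 and 0.992.

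The third question was whether the FE difference itself differed between the sexes. No member passed for this interaction (lowest adjusted p 0.998, limma), and 1 of 33405 probe sets (0.00299%) did. The interaction is the FE difference in males minus that in females. It was negative for 46 of 62 members, against 46.4% of all probe sets. These were 28 of 38 of the large and 18 of 24 of the small subunit. It was negative too for 41 of 59 mitochondrial ribosomal proteins, 8 of 11 elongation factors and other TOP genes and 16 of 26 initiation factors. Of 34 ribosome assembly factors it was negative for 10. Among the 3 arrays at the low end of the first principal component, high FE pigs 1 and 2 are males and high FE pig 5 a female. Their part in these signs was not tested. At an unadjusted p under 0.05, 2 of 60 members were negative (background 1.46%) and 0 positive (background 1.81%).

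RPL14 and RPS27 were those 2. RPL14 had 4.28, 4.43 and 5.80 in high FE males and 6.03, 6.62 and 6.40 in low FE males, which did not overlap. In females it had 4.98, 6.29 and 6.85 in high FE and 4.88, 5.64 and 6.30 in low FE, which overlapped. The FE difference was -1.51 in males and 0.44 in females, an interaction of -1.95 ± 0.74 (SE, adjusted p = 0.998). The mean of RPL14, 5.71, lay below the background limit of 7.52.

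RPS27, a zinc finger protein of the small subunit, had 6.38, 6.22 and 6.22 in high FE males and 6.40, 6.61 and 7.41 in low FE males. In females it had 7.14, 7.31 and 7.58 in high FE and 6.33, 6.71 and 6.95 in low FE. Neither pair overlapped, and they lay in opposite order, though in males the nearest values were 6.38 and 6.40. For RPL14 and RPS27 alike, the share of all probe sets without overlap between groups of this size was not counted. In males high FE lay below low FE without overlap in other members too, among them RPS25, RPL3 and RPS7. The mean of RPS27, 6.77, lay below the background limit. The FE difference was -0.53 in males and 0.68 in females, an interaction of -1.21 ± 0.36 (SE, adjusted p = 0.998). The interaction was smaller relative to its SE for RPS25 (-1.10 ± 0.60), RPS4X (0.56 ± 0.36), RPL28 (0.39 ± 0.30) and RPS14 (0.30 ± 0.27).

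**Figure D5:**
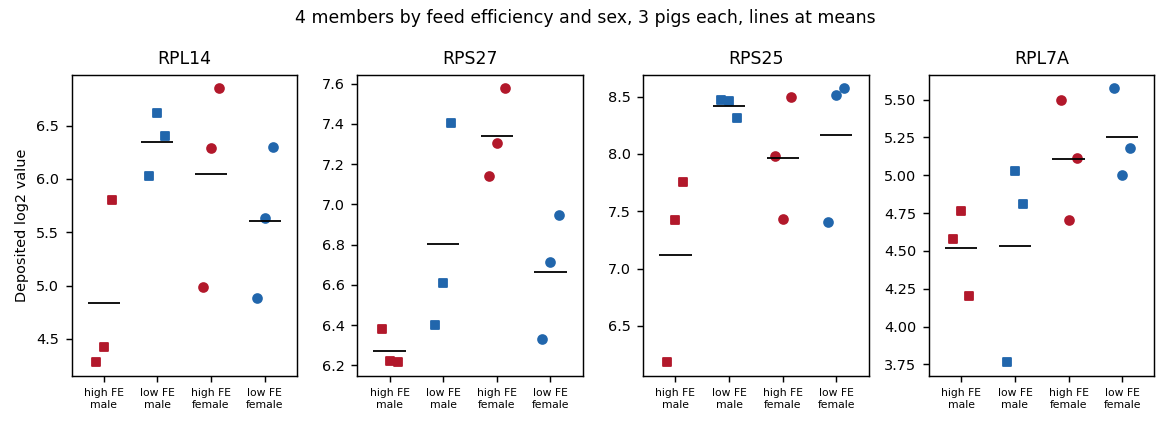
Deposited log2 values of RPL14, RPS27, RPS25 and RPL7A in the 4 combinations of FE and sex, 3 pigs each, with lines at the means. In RPS27 the high FE pigs lie below the low FE pigs among males and above them among females. In RPL7A the male means lie below the female means.

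Other genes of translation were set beside the ribosomal proteins, and none of them passed for FE. RPSA and FAU, ribosomal proteins whose symbols lie outside the pattern, differed by -0.04 ± 0.14 (SE) and, at a mean of 1.55 and untested, by -0.37. Of 11 elongation factors and other TOP genes 6 were lower in high FE (median -0.01), and 8 of 11 without the 3 arrays (median -0.11). Among them EEF2 and EEF1D, which drive elongation, differed by -0.26 ± 0.13 (SE) and -0.22 ± 0.13 (SE). Initiation factors were split 13 lower and 13 higher. By unadjusted p the first were EIF4E, the cap-binding protein, at 0.30 ± 0.13 (SE) and EIF5A at -0.26 ± 0.12 (SE). EIF2S3, an X-linked initiation factor gene in mammals, passed for sex, with a difference of -0.91 between males and females (limma, adjusted p = 0.0248).

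Ribosome assembly factors lay on the other side from the ribosomal proteins. Of 34 assembly factors, 26 had a higher mean in high FE (median 0.15), and this was 30 of 34 with a median of 0.09 without the 3 arrays. AATF and TSR1, which act in small subunit assembly, differed by 0.45 ± 0.10 (SE) and 0.44 ± 0.11 (SE), each with an adjusted p of 0.753. None of the 34 passed.

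The ribosome of mitochondria is built from other genes, of which 59 were measured. In high FE 39 of these 59 were lower (median -0.06), close to the large cytosolic subunit. Without the 3 arrays 13 of 59 were lower and the median was 0.08. With array background as a term in the model 28 of 59 were lower and the median was 0.01. The sign of the mitochondrial median thus changed in both settings, while that of both cytosolic subunits changed in neither. MRPS30 and MRPL47 had the lowest p and differed by 0.61 ± 0.13 (SE) and 0.51 ± 0.15 (SE), with an adjusted p of 0.753 each.

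Markers of the cell types in the sample gave the following values. The enterocyte markers FABP1, FABP2, APOA4, APOB, ANPEP, VIL1 and SI were measured in all pigs, with list means of 8.98 to 10.23 in high FE and 8.37 to 10.41 in low FE. Of these 7, 3 were lower in high FE (median 0.15), and 1 without the 3 arrays (median 0.38). All 6 smooth muscle markers were lower in high FE (median -0.44), with list means of 8.44 to 9.02 in high FE and 8.60 to 9.44 in low FE. All 4 goblet cell markers were lower in high FE (median -0.22), with list means of 10.13 to 11.03 in high FE and 10.58 to 11.20 in low FE. Both Brunner gland and gastric-type markers, MUC5AC and TFF2, were lower (median -1.10), with list means of 7.99 to 11.22 in high FE and 9.02 to 13.03 in low FE.

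All 7 pancreatic acinar markers were lower in high FE (median -0.66), with list means of 3.28 to 3.49 in high FE and 3.37 to 6.48 in low FE. The value of 6.48 was that of low FE pig 6, and the other 5 low FE pigs lay between 3.37 and 3.82. Crypt proliferation markers were lower in 2 of 7 (median 0.03), B and plasma cell markers in 2 of 4 (median -0.03) and T cell markers in 1 of 5 (median 0.08). Leaving out the 3 arrays, these were 3 of 7 (median 0.16), 1 of 4 (median 0.36) and 0 of 5 (median 0.42). In the same setting 5 of 6 smooth muscle markers were lower (median -0.39) and 4 of 4 goblet cell markers (median -0.42). Both Brunner gland and gastric-type markers (median -1.15) and all 7 acinar markers (median -0.82) were lower there too. No marker passed for FE. The part of these cell types in the ribosomal protein values was not tested, and in whole mucosa fewer cells of a type and less RNA per cell cannot be told apart.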

How the data were processed

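Total RNA from duodenal mucosa was converted to cDNA and labelled with Affymetrix reagents, per the labels, and the probe set names are those of the Snowball array. The submitters' processing notes name GCOS 1.1.1. How background was corrected and probes were normalized and summarized is not given in the sources used here. Deposited values lay between 0.21 and 14.21 over 47845 probe sets and were taken as log2 from their range. They were used as deposited.

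The 123 control probe sets were left out. Probe sets with a mean above the 30th percentile entered limma (version 3.58.1, under R 4.3.3), as lmFit and eBayes with terms for FE and sex. The interaction came from a mean per combination of FE and sex. The fits were tested on simulated data. The number of arrays limits the precision. Where nothing else is said, SE is that of the limma difference.

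Members and gene lists were chosen with earlier results of these data known. Named members are, per subunit, those with the lowest unadjusted p in each direction (8 of the large and 6 of the small subunit for FE, 5 and 4 for sex, 3 of all members for the interaction), the stalk proteins, relatives with their parent genes, X-linked members, the 3 largest and 3 smallest SD, the 3 whose probe sets differed most, and the 2 lowest of each other list. Chromosomes come from the Sscrofa11.1 gene table. Pig numbers follow the order of the sample records. Alternatives varied the filter, normalization, variance model, array weights, model terms, probe sets and set of pigs; the fit without 3 arrays and the background limit were added after the data were seen. No sequences are shown.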

Additional observations from a re-analysis of the deposited data

Results flagged for a closer look

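Among 92 groups of 6 pigs examined for a pig far from the rest, 10 held one. A rate of 1 in 20 would give about 5, but that holds only for independent groups. The members varied together across pigs and were partly named by their values, so the 2 counts cannot show an excess over chance. In 7 of the 10 groups the pig was low FE pig 4, a female. It lay below the other 5 low FE pigs with RPL18 at 4.05 (others 5.83 to 6.07), RPL3 at 9.42 (others 9.80 to 9.84) and RPL39 at 5.26 (others 5.49 to 5.61). It did so too with RPLP2 at 8.02 (others 8.37 to 8.52), RPS25 at 7.41 (others 8.31 to 8.57), RPS4 at 9.78 (others 10.32 to 10.64) and RPS6 at 11.56 (others 11.83 to 11.96). Its array background, 2.31, lay within the range of the others.

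High FE pig 4, also a female, lay apart in RPLP0 at 10.99 (other high FE pigs 11.39 to 11.56). Low FE pig 2 lay above the other low FE pigs in RPL36A at 4.36 (others 3.92 to 4.02). High FE pig 6 lay apart in the median deviation of the large subunit at 0.16 (other high FE pigs -0.10 to -0.02).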

How the results depend on the processing

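No paired analysis was possible because replicate numbers follow the order of the sample records and pair no pigs. No named member passed for FE, sex or the interaction under any alternative, with a lowest adjusted p of 0.524. Over all probe sets, 1 passed for FE without low FE pig 4, and leaving out each pig in turn gave 0 to 1. For sex 3 passed once the 2 runs of identifier numbers entered the model. In the run that holds the males, high FE pig 4 and low FE pig 4 are the only females. Leaving out each pig in turn gave 6 to 8 for sex. For the interaction 0 passed with the filter at the median, with array weights, with array background as a term and without the 3 arrays, and 0 to 1 without each pig in turn. The median FE difference lay between -0.12 and -0.03 in the large and between -0.22 and -0.10 in the small subunit without each pig in turn. The median sex difference crossed 0 without each pig in turn, from -0.07 to 0.05 in the large and from -0.01 to 0.10 in the small subunit, and was 0.12 in the large and 0.19 in the small subunit with the identifier runs as a term.

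Of 1142 alternative values of named members, 26 turned sign, in 12 of 52 results, and the cause was not tested. Without the 3 arrays the FE difference was -0.2697 for RPL10, -0.2193 for RPL19, -0.0272 for RPL24, 0.1714 for RPL39, -0.1217 for RPL6 and -0.1447 for RPS6. With array background as a term it was -0.0638 for RPL19 and -0.0204 for RPS27L. With array weights it was -0.0191 for RPL6, -0.0014 for RPS24 and -0.0249 for RPS6. Leaving out each pig in turn gave -0.0321 (without high FE pig 4) to 1.1137 for RPL10, -0.2138 (without low FE pig 4) to 0.2939 for RPL18 and -0.0807 (without high FE pig 1) to 0.243 for RPL19. It gave -0.0444 to 0.1154 for RPL6, -0.0681 to 0.2735 for RPS27, -0.0275 to 0.1158 for RPS27L and -0.0201 to 0.1522 for RPS6. The sex difference was 0.0434 and 0.0038 for RPL10A with array background or the run of identifiers as a term. For RPS25 it was 0.0034 with array background, 0.0763 with the run of identifiers and 0.0243 without the 3 arrays.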
